A study of Mus musculus with 9 samples.

Results

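The makeup of exosomal miRNAs at rest was described from the 3 LV-NC libraries of the 9 small RNA libraries in the study. The members were chosen by label: every library whose cells carried the control lentivirus and were kept in normal culture. The cells were TCMK-1, an established line of renal tubular epithelial cells from a C3H mouse. LV-NC is an empty lentiviral vector that carries EGFP and a puromycin resistance gene, and the labels give a multiplicity of infection of 100. The other 6 libraries came from cells with LV-NC or LV-BMAL1 that went through 24 h at 1% O2 and 12 h at 21% O2, and they were not used. Exosomes were pelleted from the culture medium by ultracentrifugation, and each captured molecule was tagged in the library kit by a random barcode, the unique molecular identifier (UMI), which lets PCR copies be counted once. Neither the labels nor the methods say whether the 3 libraries came from separate cultures, so the spread given here is between libraries and may be technical. The growth medium held foetal bovine serum, and exosome-free medium is stated for the low-oxygen groups. For LV-NC the collection medium is not specified, and bovine miRNAs of the same mature sequence cannot be told apart from mouse ones in these counts.

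A miRNA is cut from a hairpin precursor whose 5p and 3p arms can each yield a mature strand of about 22 bases. Usually 1 arm is loaded into an Argonaute protein and the other is degraded. Bases 2 to 8 of the mature strand, the seed, pair with target mRNAs, so miRNAs that share a seed form a family with overlapping targets. Many hairpins lie in clusters that are transcribed as 1 primary RNA, and some mature sequences are made by hairpins at several loci. Exosomes are small vesicles of endosomal origin that carry part of the RNA of the cell of origin, and tubular epithelial cells release them toward neighbouring macrophages and fibroblasts.

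The sequences that made up most of the exosomal pool are given first, because the largest families are told apart by the seed while their members often differ by only 1 base outside it. Names matched RefSeq (GRCm38.p6) for 1679 of the 1978 listed miRNAs, which held 95.9% of the UMIs. The seed is in capitals. The 6 most abundant miRNAs with the let-7 seed were these.
let-7b-5p: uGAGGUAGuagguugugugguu
let-7c-5p: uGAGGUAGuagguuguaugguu
let-7a-5p: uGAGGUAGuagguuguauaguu
let-7f-5p: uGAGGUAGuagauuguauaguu
let-7i-5p: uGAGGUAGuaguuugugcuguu
let-7e-5p: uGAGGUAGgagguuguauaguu

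The next largest family shared the miR-125 seed.
miR-125b-5p: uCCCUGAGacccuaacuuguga
miR-125a-5p: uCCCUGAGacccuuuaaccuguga

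The leaders of the other large families each had a seed of their own, except that miR-25-3p and miR-92a-3p shared one.
miR-16-5p: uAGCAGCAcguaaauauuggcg
miR-99b-5p: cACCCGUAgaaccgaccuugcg
miR-93-5p: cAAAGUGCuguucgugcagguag
miR-25-3p: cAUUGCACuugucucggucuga
miR-92a-3p: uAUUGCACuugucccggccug
miR-21a-5p: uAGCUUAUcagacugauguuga
miR-196a-5p: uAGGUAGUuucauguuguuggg
miR-191-5p: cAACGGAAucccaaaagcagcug

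The pool was concentrated in a few miRNAs with a long tail behind them. The libraries held 980407, 977490 and 1147768 UMIs in miRNAs. Of the 1978 miRNAs listed, 1939, 1955 and 1956 had at least 1 UMI, 1907 had one in every library, and 1 had none in any. A count of 0 allowed up to 3.06, 3.07 and 2.61 CPM (UMIs scaled to the library total) in libraries 1, 2 and 3, taking 3 UMIs as the upper limit. By mean share, 7 miRNAs held 50% of the UMIs, 74 held 90% and 907 held 99%. The 17 miRNAs with a mean of at least 10000 CPM held 72.6% ± 1.32 of the UMIs (SD, n = 3), and the 66 between 1000 and 10000 CPM held 18.4% ± 0.939. In contrast, the 1118 miRNAs between 10 and 100 CPM held 3.33% ± 0.172 and the 596 under 10 CPM held 0.331% ± 0.0201. The median miRNA had 16, 16 and 20 UMIs in the 3 libraries. Nearly every listed miRNA was thus seen, but most of them at a level where a few molecules decide the value. Counting error alone gave a share a 95% Wilson interval of at most ± 0.0991 percentage points at these depths, and it covers counting error only.

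**Figure D1:**
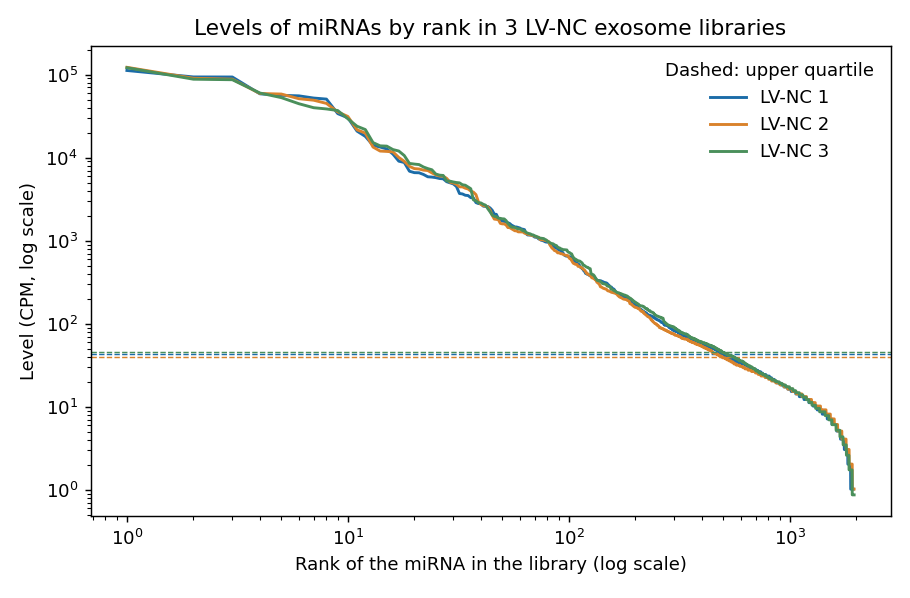
Level of each miRNA (CPM, log scale) against its rank in the library (log scale), 1 line for each of the 3 LV-NC libraries, with each library's upper quartile of all listed miRNAs as a dashed line (43.9, 39.9 and 45.3 CPM). The 3 lines lie close together from the first rank to the tail.

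The 3 libraries gave nearly the same set of miRNAs at the top, though not always in the same order, and a looser order below. The same 10 miRNAs were the 10 most abundant in every library, and 18 of the 20 most abundant were shared by all 3, with 23 names in all. Across miRNAs, which are not independent replicates, Spearman's rho between pairs of libraries was 0.892 to 0.938 for miRNAs of at least 100 CPM and 0.790 to 0.836 for those under 100 CPM. The coefficient of variation between libraries had a median of 8.14% for the 17 miRNAs of at least 10000 CPM, where counting error alone gives 0.523%. For the 476 miRNAs between 3 and 10 CPM it was 43.1%, where counting error alone gives 38.8%. The spread of the abundant miRNAs was therefore far above counting error, and that of the rarest was much nearer to it. A median of values from 3 libraries tends to lie below the expected counting value, so the excess is understated.

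miR-125b-5p, a regulator of growth and p53 signalling, was the most abundant miRNA in every library, with 112086, 122380 and 121041 CPM (118502 ± 5597, SD, n = 3). let-7b-5p followed with 93693, 90358 and 86761 CPM and let-7c-5p with 93544, 88103 and 88019 CPM. Their means of 90271 ± 3466 and 89889 ± 3166 CPM overlapped fully, whereas both stayed below miR-125b-5p in each library. miR-16-5p, a repressor of cell cycle genes and of Bcl2, was the steadiest of the leading miRNAs, with 58679, 58323 and 59997 CPM. Below it by mean, miR-125a-5p (54227 ± 4416 CPM), let-7a-5p (50458 ± 5473), let-7f-5p (47107 ± 6395) and let-7i-5p (46631 ± 8972) could not be put in an order. Each of these overlapped its neighbours within this group. miR-16-5p was not clear of the group either, because miR-125a-5p exceeded it in library 2 (59181 against 58323 CPM).

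let-7i-5p had the widest range of that group, with 56308, 44993 and 38591 CPM, so that it ranked above let-7a-5p and let-7f-5p in library 1 and below both in libraries 2 and 3. miR-99b-5p (35455 ± 1507 CPM) and let-7e-5p (30328 ± 952) were each clear of the miRNAs on either side. They were followed by miR-93-5p (22141 ± 1570) and miR-21a-5p (19857 ± 1884), a miRNA known to promote renal fibrosis. The ranges of the pair overlapped.

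The remainder of the 20 most abundant miRNAs lay between 7201 and 14006 CPM. They were miR-191-5p (14006 ± 1019 CPM), miR-25-3p (12781 ± 1068), miR-196a-5p (12699 ± 1187), miR-143-3p (12229 ± 1397), miR-30d-5p (10546 ± 1773), miR-155-5p (9466 ± 998), miR-92a-3p (7322 ± 429) and miR-182-5p (7201 ± 998). Of the 19 neighbouring pairs among the 20, 7 were apart, meaning that their ranges did not overlap and the means differed by more than the larger SD, and 12 were not. Of the 20, 17 were 5p arms, 3 were 3p arms, and 6 had the let-7 seed.

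**Figure D2:**
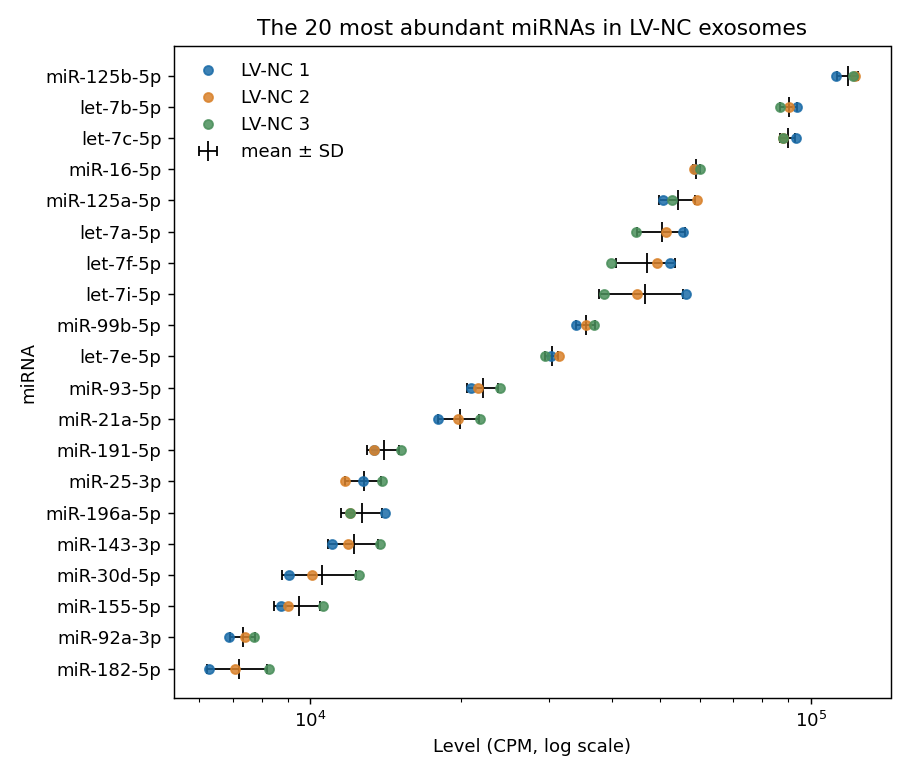
Level (CPM, log scale) of the 20 most abundant miRNAs, with a coloured point for each LV-NC library and a black bar for the mean ± SD (n = 3). miR-125b-5p is highest in all 3 libraries, and the points of let-7a-5p, let-7f-5p and let-7i-5p overlap.

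Grouped by seed, the let-7 family took more of the pool than any other of the 1398 seeds. It held 39.3%, 36.8% and 33.8% of the UMIs in libraries 1, 2 and 3 (36.7% ± 2.73, SD, n = 3). The let-7 miRNAs are known for the repression of Ras, Myc and Hmga2 and for their rise as cells differentiate. Within the family, let-7b-5p and let-7c-5p each made up about the same part, with 24.7% ± 0.905 and 24.6% ± 1.24. let-7a-5p, let-7f-5p and let-7i-5p gave 13.7% ± 0.491, 12.8% ± 0.879 and 12.7% ± 1.51, and let-7e-5p gave 8.30% ± 0.536. let-7d-5p (7195 ± 641 CPM) and let-7g-5p (3471 ± 531 CPM) were minor members, and miR-98-5p, which has the let-7 seed under another name, was rarer still with 1060 ± 115 CPM. Thus 6 of the family's 11 matched members carried nearly all of its UMIs.

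The miR-125 family was next with 16.5%, 18.5% and 17.7% of the UMIs (17.6% ± 0.967). miR-125b-5p made up 67.5% ± 1.07 of it and miR-125a-5p 30.9% ± 1.13. The third member, miR-351-5p, a rodent miRNA with the same seed, had 2837 ± 321 CPM. The let-7 share was highest in library 1 and the miR-125 share lowest there.

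Most of the other large families were carried by a single miRNA. The miR-15/16 family held 6.17% ± 0.0921 of the UMIs, of which miR-16-5p gave 95.6% ± 0.293. Its partners miR-15b-5p and miR-322-5p had 1210 ± 150 and 1177 ± 35.5 CPM, and miR-15a-5p had only 162 ± 6.91 CPM. In the miR-99/100 family (3.60% ± 0.151), miR-99b-5p gave 98.3% ± 0.184, while miR-100-5p and miR-99a-5p had 346 ± 36.9 and 248 ± 27.6 CPM. The miR-17/93 family (2.35% ± 0.167), known for its role in cell cycle entry, was likewise 94.1% ± 0.204 miR-93-5p. miR-20a-5p had 1020 ± 121 CPM and miR-17-5p, which gives the family its name, 297 ± 48.4 CPM.

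By contrast, the miR-25/92 family (2.03% ± 0.129) was shared between miR-25-3p with 63.0% ± 1.94 and miR-92a-3p with 36.2% ± 1.85. The miR-21 seed held 1.99% ± 0.188 and the miR-196 seed 1.41% ± 0.122, with miR-196a-5p at 90.1% ± 0.827 of the latter. miR-196a and miR-196b lie in the Hox gene clusters and repress Hox genes. The seed of miR-191-5p held 1.40% ± 0.102 and that of miR-199a-3p and miR-199b-3p 1.14% ± 0.0825. Together these 10 families, the largest among miRNAs matched to a RefSeq sequence, held 74.3% of the UMIs. The unmatched miR-143-3p alone held 1.22% ± 0.140, more than the seed of miR-199a-3p. The miR-30 family, abundant in the kidney tubule, held 2.09% ± 0.376 when its 5 members were taken by name, with 1.77%, 1.98% and 2.50% in the 3 libraries. Taken so, its mean share lay beside those of the miR-25/92 and miR-21 families. It was led by miR-30d-5p, which is unmatched, and by miR-30a-5p (6712 ± 1471 CPM).

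Clusters were formed from the positions in the deposited table, which lists each mature miRNA once. Of 1679 matched miRNAs, 1671 lay at the position of a RefSeq locus on GRCm38.p6. The 55 miRNAs made by more than 1 hairpin held 41.2% ± 0.919 of the UMIs, and their UMIs cannot be divided among their loci. With neighbours within 10 kb on 1 strand joined, 80 clusters of 2 or more hairpins held 64.0% of the UMIs, and the 10 largest held 56.8%. Those shares therefore give the UMIs of mature sequences listed at a locus and not the output of that locus.

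The cluster at chr15:85706616-85707400 (plus strand), with let-7c-2 and let-7b in an annotated noncoding transcript, Lncppara, had the largest share, 18.2% ± 0.659. let-7b-5p is made by a single hairpin and let-7c-5p by hairpins on chromosomes 15 and 16. With single-hairpin miRNAs alone, the share of the locus was 9.17%. The cluster of miR-99b, let-7e and miR-125a at chr17:17830194-17830876, inside the protein-coding gene Spaca6, held 11.7%, 12.8% and 12.2% of the UMIs (12.2% ± 0.571). All 6 of its mature miRNAs each come from a single mouse hairpin, and it held the largest share of any such cluster. The part of bovine miRNAs, or of reads from let-7a-5p, 1 base from let-7e-5p, was not tested. The UMIs of the cluster were divided among miR-125a-5p (44.3%), miR-99b-5p (29.0%) and let-7e-5p (24.8%), 3 miRNAs of 3 seed families.

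The cluster of let-7a-1, let-7f-1 and let-7d on the minus strand at chr13:48536024-48538260 held 10.6% ± 1.17. let-7a-5p and let-7f-5p each also come from a further hairpin, and single-hairpin miRNAs alone left 0.873%. The miR-15a/16-1 cluster (chr14:61631894-61632096, minus strand) held 5.92% ± 0.0877, of which miR-16-5p, also made by a hairpin on chromosome 3, was 99.7%. The partners in this pair were far apart, with 59000 ± 882 CPM for miR-16-5p and 162 ± 6.91 CPM for miR-15a-5p.

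Levels within other clusters, which were joined by distance alone, were uneven as well. The miR-106b/93/25 cluster within Mcm7, a gene for a DNA replication helicase subunit (chr5:138165332-138165807, minus strand), held 3.68% ± 0.277. miR-93-5p was 60.2% of it and miR-25-3p 34.8%, while miR-106b-5p had 50.6 ± 10.99 CPM and its opposite arm miR-106b-3p 838 ± 197 CPM. In the cluster of miR-191 and miR-425 (1.48% ± 0.114), miR-191-5p had 14006 CPM and miR-425-5p 729 ± 141 CPM. The cluster of miR-183, miR-96 and miR-182 (1.295% ± 0.165), best known from sensory organs and also linked to the circadian clock, was made up of miR-182-5p (7201 ± 998 CPM) and miR-183-5p (5361 ± 688 CPM), with miR-96-5p at 346 ± 21.0 CPM. The cluster of miR-143 and miR-145a held 1.36% ± 0.144, and miR-143-3p exceeded miR-145a-5p, which had 1218 ± 53.0 CPM. The miR-30b/30d cluster held 1.09% ± 0.181, with miR-30d-5p at 10546 CPM beside miR-30b-5p at 220 ± 24.5 CPM. The proliferation-linked cluster of miR-17 to miR-92a-1 held 0.975% ± 0.0731, of which miR-92a-3p was 75.2%. miR-92a-3p is also made by a hairpin on chromosome X and miR-19b-3p likewise has more than 1 hairpin, and single-hairpin miRNAs alone left 0.198%.

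**Figure D3:**
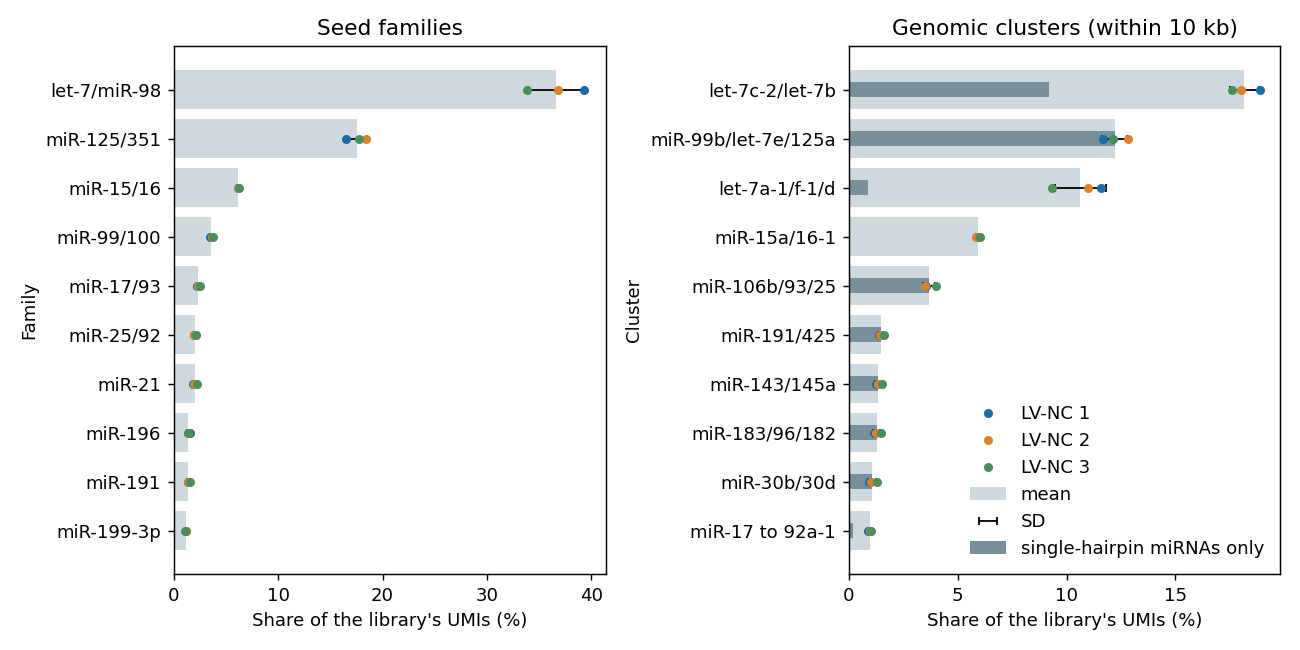
Share of UMIs (%) in the 10 largest seed families of matched miRNAs (left) and the 10 largest genomic clusters (right). Pale bars give the mean, whiskers the SD (n = 3), points the 3 libraries and dark bars the part from single-hairpin miRNAs. The let-7 seed leads the families at 36.7%, and the cluster of miR-99b, let-7e and miR-125a is the largest whose dark bar fills the pale one.

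Mature sequences that differ by 1 base or by none limit how finely the pool can be read. miR-199a-3p and miR-199b-3p are identical in sequence and come from different hairpins. They had 5771, 5857 and 6017 UMIs and 5721, 5873 and 5980 UMIs, an even division that says nothing of the 2 loci. miR-103-3p and miR-107-3p differ at G22C (counted from the 5′ end, miR-103-3p base first) and had 4136 ± 732 and 3899 ± 546 CPM. Among matched miRNAs of at least 100 CPM, 14 pairs differed by at most 1 base over their shared length. let-7a-5p and let-7f-5p, let-7a-5p and let-7c-5p, and let-7b-5p and let-7c-5p were among them. The unmatched miRNAs were not compared, so further such pairs may exist.

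The 5p arms held 83.2% ± 0.812 of all UMIs and the 3p arms 14.0% ± 0.855, the rest being miRNAs with no arm in the name. That excess came from the abundant miRNAs and was not found over hairpins as a whole. Of 802 hairpins with both arms listed, 488 had at least 100 UMIs over the 3 libraries, and of these 256 had more 5p and 232 more 3p UMIs. The arm ratio is given as log2 of 5p over 3p UMIs with 0.5 UMI added to each arm, and its median over the 488 hairpins was 0.15. In 93 of them the leading arm differed between libraries.

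The unevenness of the arms rose with depth. Among 264 hairpins with 100 to 300 UMIs, the median size of the log2 ratio was 1.20, and in 9.09% of them the leading arm held at least 90% of the UMIs. Among the 38 hairpins with at least 10000 UMIs these values were 7.56 and 92.1%, and 26 of the 38 were led by the 5p arm. In low-count hairpins a few UMIs of the rarer arm bound the ratio that can be seen, so the 2 groups cannot be compared as to their true ratio. Of the 38, the leading arm differed between libraries in 0, and let-7d, miR-30a and miR-423 were the ones below 90%, with log2 ratios of 2.47 ± 0.046, 2.73 ± 0.36 and 2.55 ± 0.33.

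The hairpin of let-7i had the most one-sided 5p output. It had 55205, 43980 and 44293 UMIs from the 5p arm and 9, 14 and 20 from the 3p arm, a log2 ratio of 11.72 ± 0.73 (SD, n = 3). miR-155, made from the noncoding RNA Mir155hg and known from activated immune cells, followed with 10.00 ± 0.28, then miR-6898 with 9.81 ± 0.62, let-7e with 9.58 ± 0.79 and miR-30d with 9.58 ± 0.71. In each of them the 3p arm had 72 UMIs or fewer in every library.

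At the other end, the most 3p-led hairpins had ratios of somewhat smaller size. They also held fewer UMIs over the 3 libraries, 7886 to 17599 against 20629 to 143521 for the 5p-led ones named. Depth bounds the ratio that can be seen, so the sizes at the opposite ends cannot be compared. miR-107 had a log2 ratio of -9.72 ± 1.48, with 3205, 4105 and 4853 UMIs from the 3p arm and 7, 1 and 9 from the 5p arm. miR-199b (-9.41 ± 0.42), miR-103 (-9.38 ± 0.18), miR-206 (-8.90 ± 0.71) and miR-342 (-8.59 ± 1.09) came next. The value of miR-107 rests in library 2 on 1 UMI of the rarer arm, so its rank among these 5 is not firm.

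Few deeply counted hairpins gave both arms alike. miR-324 was the most balanced of those with at least 1000 UMIs, with 232, 233 and 301 UMIs from the 5p arm and 197, 217 and 301 from the 3p arm (0.11 ± 0.12). miR-874 (0.0014 ± 0.35), miR-7011 (-0.053 ± 0.14), miR-7018 (-0.047 ± 1.08) and miR-7658 (-0.12 ± 0.45) were the other 4 nearest to 0 among the 224 hairpins with at least 300 UMIs. For miR-7018 the mean hid opposite libraries, with 29.3% of UMIs from the 5p arm in library 2 and 63.4% in library 3. The hairpins of a 5p-led, a 3p-led and a balanced case are shown from RefSeq (GRCm38.p6), with both mature arms in capitals, 5p first.
let-7i hairpin: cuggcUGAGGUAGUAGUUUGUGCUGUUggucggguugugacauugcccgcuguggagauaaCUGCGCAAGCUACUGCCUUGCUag
miR-107 hairpin: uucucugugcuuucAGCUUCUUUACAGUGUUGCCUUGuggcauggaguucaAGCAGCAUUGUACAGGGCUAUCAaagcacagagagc
miR-324 hairpin: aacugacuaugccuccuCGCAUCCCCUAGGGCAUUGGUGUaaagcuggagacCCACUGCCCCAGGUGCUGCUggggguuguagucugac

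**Figure D4:**
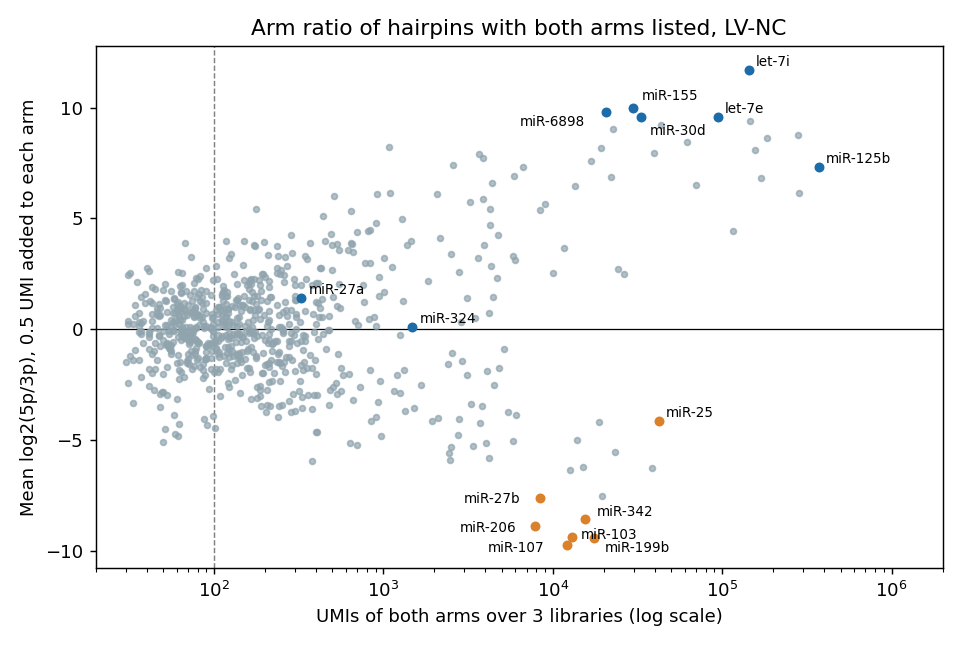
Mean log2 ratio of 5p to 3p UMIs (3 libraries, 0.5 UMI added to each arm) against the UMIs of both arms over 3 libraries (log scale), for hairpins with at least 30 UMIs. The dashed line marks the minimum of 100 UMIs. Named hairpins are in blue where 5p leads and in orange where 3p leads, and the points fan out from 0 to beyond 9 on either side as the UMIs rise.

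Hairpins of the same family did not always favour the same arm. miR-27b had 2737, 2497 and 3075 UMIs from its 3p arm and 10, 13 and 19 from its 5p arm, a log2 ratio of -7.62 ± 0.37. miR-27a, whose 3p arm is the miRNA the study followed, had 33, 30 and 24 UMIs from the 3p arm and 64, 69 and 108 from the 5p arm. Its ratio of 1.43 ± 0.64 was on the 5p side in each library, with 72.5% of its UMIs from the 5p arm. The 3p counts of miR-27a lay within the range of the embryonic stem cell and testis lists given below (up to 36 and 54 UMIs). Those limits are the highest single counts, and both lists had a median of 7.5 UMIs. miR-27a-3p was above that median and above the median listed miRNA of each library (16, 16 and 20 UMIs). The ratio of miR-27a thus rests on few UMIs, and the part of miR-27b-3p reads in them was not tested. Both 3p arms share a seed and differ only at C19U, counted from the 5′ end with the base of miR-27a-3p first.
miR-27a-3p: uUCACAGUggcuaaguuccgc
miR-27b-3p: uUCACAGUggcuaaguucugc

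At baseline miR-27a-3p had 28.4 ± 6.67 CPM and ranked 680 of 1978, below the upper quartile of each library. miR-27b-3p had 2675 ± 119 CPM, 94.1 times as much, and ranked 41, a gap that rests on 24 to 33 UMIs of miR-27a-3p per library. A similar gap separated miR-10a-5p and miR-10b-5p, which differ at U12A (miR-10a-5p base first) and are encoded beside Hox genes. miR-10a-5p had 2329, 2653 and 2852 CPM and miR-10b-5p had 30.6, 29.7 and 45.3 CPM. In both the miR-27 and the miR-10 pair a difference of 1 base went with levels far apart. This was not general, because some other pairs 1 base apart lay close in mean level. Among them were miR-107-3p (3899 CPM) beside miR-103-3p (4136 CPM), and let-7c-5p (89889 CPM) beside let-7b-5p (90271 CPM). How well reads of such pairs were told apart was not tested. miR-27b-3p and the miR-10 pair were picked after their values were seen.

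miRNAs typical of particular cell types were set against the upper quartile of all 1978 listed miRNAs in the same library (43.9, 39.9 and 45.3 CPM). Of all listed miRNAs, 19.6% were above it in every library and 68.9% below it in every library. The tail was judged from lists of miRNAs that cultured tubular cells are not known for. The embryonic stem cell list (miR-290 and miR-302 clusters) had 0 of 10 members above the quartile in every library, with no count above 36 UMIs, and that of X-linked testis miRNAs had 0 of 12, with no count above 54. Both lists had a median of 7.5 UMIs. Levels in that range were not read as expression in the paragraphs that follow.

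Of the 14 miRNAs listed for the kidney tubule, 10 were above the quartile in every library, and the list summed to 35833, 35987 and 41728 CPM. Its most abundant members were miR-196a-5p, miR-30d-5p, miR-30a-5p and miR-10a-5p, which are also expressed in other tissues. The more kidney-enriched members had lower levels. miR-192-5p, a TGF-beta-linked renal miRNA, had 126, 123 and 159 CPM (136 ± 19.7), and its cluster partner miR-194-5p had 63, 55 and 105 UMIs (70.7 ± 18.5 CPM), both above the quartile in every library. miR-204-5p, prominent in kidney tubules in vivo, had 7, 9 and 7 UMIs and miR-215-5p, which has a seed like that of miR-192-5p, 5, 5 and 4. The latter pair lay within the range of the stem cell and testis lists in every library.

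The epithelial list gave 0 of 7 members above the quartile in every library. Its defining members, the miR-200 family, repress Zeb1 and Zeb2 and thereby maintain E-cadherin. miR-200c-3p had 7, 12 and 14 UMIs, miR-200a-3p 5, 3 and 15, miR-200b-3p 2, 6 and 9, miR-141-3p 2, 2 and 5 and miR-429-3p 10, 12 and 11. All 5 were in the tail in every library. miR-203-3p had the most with 39, 58 and 56 UMIs, and miR-205-5p had 33, 28 and 66, so these crossed the quartile in some libraries and not in others. The miR-200 family was thus in the tail of these exosomal libraries, although the cells are labelled as tubular epithelial. miRNAs inside the cells were not measured in these libraries, so the level of the family in the cells was not tested.

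On the other hand, all 5 miRNAs of the mesenchymal list, known from smooth muscle and fibroblasts, were above the quartile in every library and summed to 18616, 19725 and 20861 CPM. miR-143-3p had 11032, 11890 and 13764 CPM and miR-145a-5p 1170, 1275 and 1208 CPM. miR-199a-3p, whose count cannot be separated from miR-199b-3p, had 5707 ± 406 CPM. miR-199a-5p and miR-214-3p, which share 1 transcript antisense to Dnm3, had 316 ± 18.5 and 265 ± 72.2 CPM. Another miR-199a hairpin lies on chromosome 9, so the UMIs of miR-199a-5p cannot be tied to that transcript. The summed level of the mesenchymal list was above that of the epithelial list, 126 ± 26.7 CPM, in each library.

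Blood and vessel miRNAs were mixed. miR-126a-3p, the marker of endothelial cells, had 324, 295 and 358 UMIs (315 ± 14.5 CPM). Among the 5 red blood cell miRNAs, miR-451a had 17, 8 and 21 UMIs and both arms of miR-144 had 15 UMIs or fewer. miR-486a-5p and miR-486b-5p, also known from muscle, had 256 ± 37.9 and 249 ± 37.2 CPM. Their UMIs were nearly equal in each library (294, 233 and 265 against 286, 229 and 255). Whether their reads can be told apart was not tested, so they should not be counted as separate evidence. Of 7 white blood cell miRNAs, miR-155-5p (9466 ± 998 CPM), miR-342-3p (4998 ± 143) and miR-146a-5p (1168 ± 57.1), which occur in many cell types, were high. With miR-223-3p, 4 of the 7 were above the quartile in every library. The markers more restricted to blood cells were near the quartile or below it. miR-223-3p was slightly above it in every library, with 51, 44 and 54 UMIs. miR-142a-3p (60, 52 and 49 UMIs) and miR-150-5p (49, 47 and 49) were above it in libraries 1 and 2 and below it in library 3. miR-142a-5p, with 8, 11 and 7 UMIs, was below it in each. The part of serum or of other cells in these levels was not tested.

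In the liver list, miR-122-5p had 173, 113 and 139 UMIs (138 ± 33.7 CPM) and miR-122-3p 3, 7 and 2. In the muscle list, miR-206-3p reached 2586, 2605 and 2430 CPM and ranked 43, whereas miR-1a-3p, which acts with it in skeletal muscle and is known for the same seed, had 2, 2 and 1 UMIs. The other members, among them miR-133a-3p with 6, 13 and 8 UMIs, stayed at 31 UMIs or fewer. miR-206 was thus present without the rest of the muscle set, and 6 of the 7 members of that list were below the quartile in every library.

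Of 10 nerve cell miRNAs, 2 were above the quartile in every library and 7 below it in every library, shares close to those of all listed miRNAs. Those above were miR-128-3p, which is not restricted to neurons, with 590 ± 67.8 CPM, and miR-129-5p with 52, 50 and 66 UMIs. miR-124-3p had 8, 4 and 11 UMIs, miR-9-5p 9, 7 and 11 and miR-153-3p 1, 2 and 2. Of the 4 pancreas and pituitary miRNAs, 1 was above in every library and 2 below. miR-375-3p, the islet and pituitary miRNA, had 11, 14 and 16 UMIs and miR-7a-5p, also made from a ubiquitous host transcript, 1345 ± 148 CPM. The sensory organ list was high for the 3 miRNAs of the miR-183 cluster, and miR-184-3p had 15, 12 and 21 UMIs.

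The imprinted Dlk1-Dio3 region, whose miRNAs are expressed from the maternal allele, had 8 of 28 members above the quartile in every library. miR-127-3p had 304, 265 and 278 UMIs (274 ± 34.1 CPM). The list summed to 3636, 1585 and 1599 CPM, and library 1 stood apart because of 1 miRNA, miR-379-5p, with 2556, 615 and 699 UMIs. Without miR-379-5p the sums were 1029, 956 and 990 CPM. The repeat-derived Sfmbt2 list, active in placenta and stem cells, had 0 of 11 members above the quartile in every library, with 131 ± 26.8 CPM in all.

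**Figure D5:**
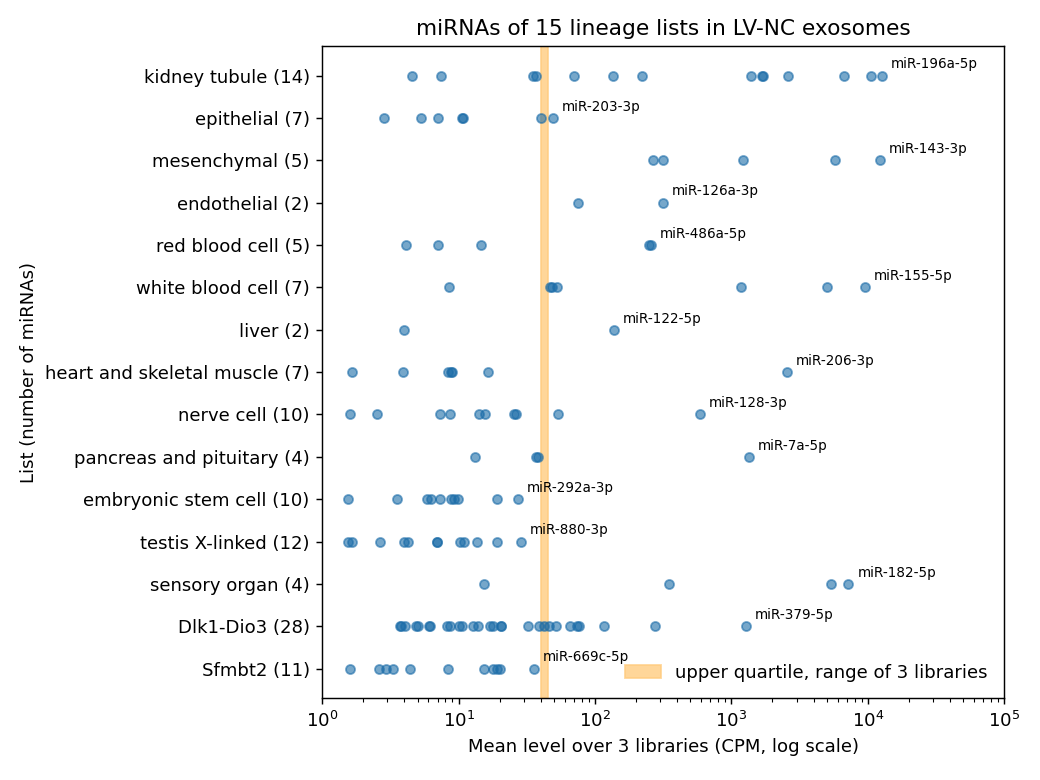
Mean level (CPM, log scale, 3 libraries) of each miRNA in 15 lineage lists, 1 row for each list with its number of miRNAs and its highest member named. The orange band spans the upper quartiles of the 3 libraries (39.9 to 45.3 CPM). All mesenchymal miRNAs lie to the right of it, and those of the embryonic stem cell and testis lists to the left.

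The abundant sequences also differed in composition from the listed ones. Of the matched miRNAs, 40.9% begin with U, and these held 79.4% ± 1.15 of the UMIs of matched miRNAs. Among the 100 most abundant, 56 begin with U. A length of 22 bases was found in 44.8% of matched miRNAs, which held 77.2% ± 0.994 of the UMIs. Most members of the let-7 family and miR-125b-5p, which lead the pool, have both features. The letters CCCU were in 11.4% of mature sequences, which held 20.0% ± 1.06 of the UMIs, but only 1.71% lay outside the miR-125 seed family, whose seed holds those letters. The letters GGAG, a motif linked to the sorting of miRNAs into exosomes in T cells, were in 14.2% of sequences and 6.38% ± 0.168 of the UMIs. let-7e-5p alone gave 3.16% of the UMIs, a large part of that share. A match of letters describes the sequence and shows no binding.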

How the data were processed

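Of 9 exosomal small RNA libraries, the 3 LV-NC ones were described without a comparison of groups. For 1978 mature miRNAs, the authors deposited both UMI counts and CPM. A check showed that the deposited CPM are the UMI counts over the library total, not normalized further. The tools cutadapt 2.7, Bowtie 1.3.0 and edgeR are listed in the submitters' processing notes. The genome build and the handling of reads that match several miRNAs are not given in the sources used here.

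Levels are the mean ± SD of CPM over 3 libraries. Shares were computed per library and averaged. Seeds (bases 2 to 8) and hairpins come from RefSeq, host genes from GENCODE M21. Named were the 20 most abundant miRNAs, leading members of the 10 largest families and clusters, the 5 hairpins at each end and nearest to 0 of the arm ratio with at least 300 UMIs, the highest, lowest and defining members of each of 15 lists (128 miRNAs) and miR-27a-3p. Members and lists were chosen with earlier results of these data known. Steps were tested on simulated counts. TMM scaling used edgeR 4.0.16 (R 4.3.3), and all else numpy 2.4.6, pandas 2.3.3, matplotlib 3.10.9 and scipy 1.17.1 under Python 3.11.15. Alternatives were TMM scaling, a minimum of 10 UMIs, pooled UMIs, a seed of bases 2 to 7, other cluster distances and arm minimums, a pseudocount of 1 UMI, a level of 100 CPM and leaving out each library.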

Additional observations from a re-analysis of the deposited data

How the results depend on the processing

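Of 336 values recomputed under another setting, 318 stayed within the spread between libraries or within 1.5 times the count, 18 moved and 0 changed direction. Leaving out 1 of 3 libraries cannot shift a mean by 1 SD. Shares and levels therefore stayed within the spread there by construction. A change of direction was looked for only in the median log2 arm ratio. With single-hairpin miRNAs only, the cluster of let-7c-2 and let-7b fell from 18.2% to 9.17% of the UMIs, by construction. The number of hairpins led by the 5p and the 3p arm was 65 and 46 with at least 1000 UMIs, against 256 and 232 with at least 100, and 365 were led by the 3p arm with at least 30 UMIs. The median log2 arm ratio was 2.31 with at least 1000 UMIs and 0.085 with at least 30, and 0.086 to 0.32 when a library was left out, so no lean of the typical hairpin should be read from it. Within 3 kb, the cluster of miR-183, miR-96 and miR-182 held 0.721%. Requiring 100 CPM left 1 endothelial, 1 nerve cell and 2 Dlk1-Dio3 miRNAs above the level, and without LV-NC replicate 1 the epithelial list had 1 miRNA above the quartile in every library. TMM scaling moved 0 of the 20 leading levels by more than 1 SD. After seeing the data, the miR-30 family was also taken by name, since the matched members alone held 1.01%, and the Dlk1-Dio3 list without miR-379-5p, with a mean sum of 991 CPM. No paired analysis was possible because a single group was described with no test. Ligation and reading efficiency differ among sequences, so ratios between miRNAs are ratios of UMIs, and the size of this was not tested.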

Other observations

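Among the 83 miRNAs with a mean of at least 1000 CPM, 6 had a coefficient of variation over 30% between the 3 LV-NC libraries, and 5 of these were highest in library 1. miR-379-5p had 2607, 629 and 609 CPM, miR-6378 had 2077, 551 and 795 CPM and miR-3963 had 2876, 1004 and 1022 CPM. miR-8099 had 1725, 715 and 718 CPM and miR-1198-5p had 2090, 853 and 1072 CPM. miR-5617-3p had another pattern, with 1375, 681 and 1858 CPM. For the first 5, the mean rests largely on library 1.

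miRNAs with numbers of 5000 and above, which were mostly catalogued late from deep sequencing, were 833 of the 1978 listed and held 4.31% of the UMIs. Their median level of 17.8 CPM was close to the 16.3 CPM of the other miRNAs, but only 7 of them reached 1000 CPM, against 76 of the others. The most abundant was miR-6898-5p with 6601, 7002 and 6351 CPM, which ranked 24 and came almost wholly from the 5p arm of its hairpin. miR-8112 followed with 2584, 3587 and 3029 CPM.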
